A study of Mus musculus with 16 samples.

Results

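Interleukin receptor genes were compared between B1a cells of the peritoneal cavity and splenic B cells, in normal mice and in a congenic strain with a lupus susceptibility locus. Members were the genes whose symbol on the array begins with Il, then digits, then r, which gave 36 of the 18193 named genes, measured by 67 probe sets. For each gene the probe set with the highest mean over the 16 arrays was taken, except Il1rl2, whose highest probe set did not pass the filter on low values. Of the 36 genes, 32 passed that filter and were tested. The pattern also takes in Il1rn, which encodes a soluble antagonist of the IL-1 receptor and no receptor, and it takes in decoy receptors. Il2rg, the shared gamma chain, and Il1rl1, Il23r and Il11ra1 were not analysed here.

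The 4 groups held 4 arrays each, from mice 5 months old. B6_B1a and B6_Bs came from C57BL/6 (B6) mice, and Sle2c1_B1a and Sle2c1_Bs from B6.Sle2c1 mice, which carry on the B6 background the Sle2c1 susceptibility locus of the lupus-prone NZM2410 strain. The locus includes Cdkn2c, a cyclin-dependent kinase inhibitor gene, and the congenic interval holds other genes as well. B1a cells were peritoneal cells that did not adhere during 2 h of culture in 10% serum, were depleted with antibodies to Thy1.2 and CD3ε and were then selected with an antibody to CD5, which gave 80% B220int CD5+ cells. Bs cells were CD43- spleen cells, with over 90% B220hi cells, and no such culture is described for them. Tissue, culture and selection therefore differ together with the cell type and cannot be told apart from it. The series states 4 biological replicates per group, and no label says which mice were pooled or how replicates were numbered across groups.

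Interleukin receptors are assembled from a chain that binds the cytokine and a chain, often shared among cytokines, that carries the signal. Most of those studied here signal through Janus kinases and STAT factors, whereas the IL-1 and IL-17 families use adaptors such as MyD88 and Act1. B1a cells are self-renewing, produce natural antibody and IL-10, and are known to depend on IL-5, while IL-4 and IL-21 act on splenic B cells during help from T cells.

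Levels are given in units of the score that the authors deposited, which behaves like a logarithm of signal but whose base is not given in the sources used here. A difference between groups is a difference of these units and not a fold change. Values below 0.495 were raised to 0.495, called the floor, and were treated as carrying no level, which was not tested. A difference from a group lying wholly at the floor is a lower bound. No level of one gene was set against that of another, since probe sets differ in response. Since these were bulk preparations, fewer cells of a type and less RNA per cell cannot be told apart.

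Promoter sequence is shown for 4 members on which the results turn, with coordinates from RefSeq on GRCm38.p6. Il2ra (chr2:11642542-11642791, plus strand) and Il1r2 (chr1:40085843-40086092, plus strand) had the widest gaps between B1a and Bs cells. Il5ra (chr6:106749038-106749287, minus strand) encodes the receptor chain for IL-5, and Il9r (chr11:32200280-32200529, minus strand) was the member higher in B1a cells of the Sle2c1 strain. Each run is the 250 bases before the listed start of the gene, written 5′ to 3′ on the strand of the gene. Capitals mark matches to 3 searched motifs, which were TTCNNNGAA (STAT), TGANTCA (AP-1) and ATGCAAAT (octamer), on both strands.
Il2ra: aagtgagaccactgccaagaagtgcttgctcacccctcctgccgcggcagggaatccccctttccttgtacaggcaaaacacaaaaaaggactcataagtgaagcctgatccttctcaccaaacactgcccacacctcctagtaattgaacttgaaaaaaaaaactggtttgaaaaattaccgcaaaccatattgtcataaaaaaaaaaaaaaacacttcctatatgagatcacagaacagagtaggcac
Il1r2: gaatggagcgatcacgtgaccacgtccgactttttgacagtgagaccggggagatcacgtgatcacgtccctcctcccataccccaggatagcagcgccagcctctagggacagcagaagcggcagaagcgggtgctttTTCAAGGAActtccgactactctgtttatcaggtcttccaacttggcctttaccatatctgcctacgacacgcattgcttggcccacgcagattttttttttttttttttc
Il5ra: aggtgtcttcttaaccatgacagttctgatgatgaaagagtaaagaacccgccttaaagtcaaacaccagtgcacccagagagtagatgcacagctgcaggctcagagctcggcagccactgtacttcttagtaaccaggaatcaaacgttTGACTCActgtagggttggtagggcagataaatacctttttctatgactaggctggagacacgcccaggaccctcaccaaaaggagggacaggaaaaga
Il9r: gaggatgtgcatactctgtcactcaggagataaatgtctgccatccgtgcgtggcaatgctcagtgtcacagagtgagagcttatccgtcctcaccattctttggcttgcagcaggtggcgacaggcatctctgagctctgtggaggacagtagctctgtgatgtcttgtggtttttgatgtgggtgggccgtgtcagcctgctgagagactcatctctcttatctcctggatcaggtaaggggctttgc

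The Il1r2 run held 1 STAT match, 111 to 103 bases before the start, and the Il5ra run held 1 AP-1 match, 99 to 93 bases before it. No match to the 3 motifs was found in the Il2ra and Il9r runs. Over 32851 RefSeq promoters of the same length, 7.02% held the STAT motif, 6.75% the AP-1 motif and 1.6% the octamer. Of the 29 members with a listed start, 5 held the STAT motif, 7 the AP-1 motif and 2 the octamer. Members were counted as genes with a match in any listed promoter, whereas the shares are of promoters, so the units differ. A match describes letters and is no evidence of binding.

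The arrays had medians between 0.68 and 1.12 units, and correlations between arrays of a group were 0.781 to 0.971. On the first principal component, with 48.8% of the variance, all B1a arrays lay on the negative side and all Bs arrays but B6_Bs 1 on the positive side. Sle2c1_B1a 4 lay nearest to 0 among the B1a arrays, and B6_Bs 3 and Sle2c1_Bs 3 lay farthest out among the Bs arrays; these are the 3 arrays left out together where that is stated, and B6_Bs 1 was left out with them in a further fit. The mean level over 8 B1a markers was 1.81 to 2.14 units on B1a arrays and 0.848 to 1.04 on Bs arrays, with Cd5, Bhlhe41 and Sox5 at the floor in Bs cells of both strains. The mean over 7 tested B cell markers was 2.37 to 2.52 units in B1a and 2.64 to 2.81 in Bs arrays.

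Markers of other cells differed between the groups, as the plot of marker lists by array shows. The mean over 15 tested macrophage markers ranged over 1.26 to 2.12 units in B6_B1a and 0.950 to 1.01 in Sle2c1_B1a. On the Bs arrays it was 1.10 to 1.25 in B6 and 0.865 to 1.08 in Sle2c1 mice. In Sle2c1_B1a the 6 markers Csf1r, Timd4, C1qb, C1qc, Apoe and Marco never rose above the floor. The 4 markers Cd14, Mrc1, Adgre1 and Cd68 lay above it on every Sle2c1_B1a array, with means of 2.775, 2.315, 1.97 and 1.33 units. None of these 4 was called between the strains in B1a cells. The mean over 10 mast cell or basophil markers was 1.29 to 1.64 in B6_B1a and 0.986 to 1.38 in Sle2c1_B1a, against 0.556 to 0.841 on the Bs arrays. Of these 10 markers, 7 were higher in B1a than in Bs cells of B6 mice and 4 in the Sle2c1 strain.

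**Figure D1:**
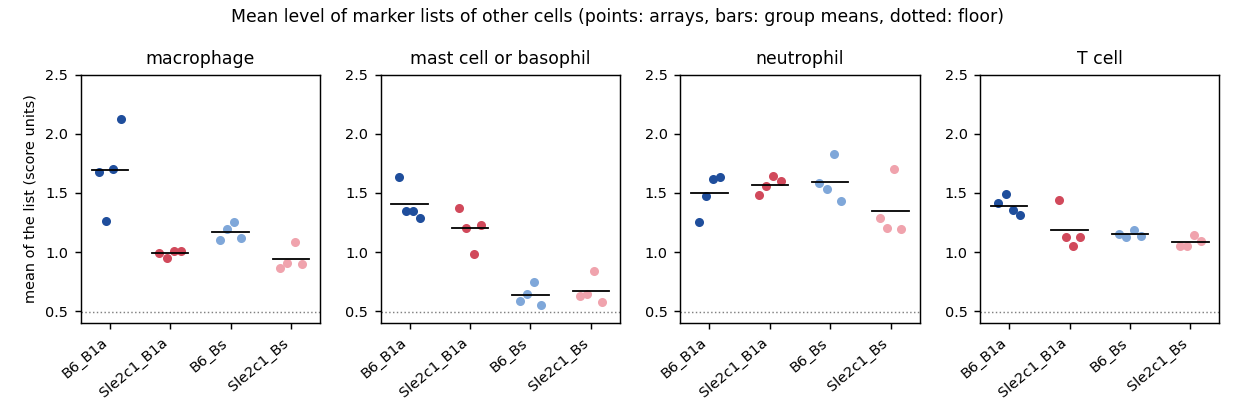
Mean level over the macrophage, mast cell or basophil, neutrophil and T cell markers on every array, in units of the deposited score (vertical axis), for the 4 groups (horizontal axis); points are arrays, bars group means and the dotted line the floor. The mast cell or basophil list is higher on all B1a arrays than on all Bs arrays, and the macrophage list is 1.26 to 2.12 units in B6_B1a against 0.950 to 1.01 in Sle2c1_B1a.

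Above the floor on all 16 arrays were 10 members, namely Il4ra, Il13ra1 and Il21r of the gamma chain family, Il5ra, Il6ra and Il27ra of the beta common, IL-6 and IL-12 family, Il1rap, Il17ra, Il10ra and Il10rb. The IL-13 receptor genes Il13ra1 and Il13ra2 were counted in the gamma chain family by grouping and not by use of that chain. The other 22 tested members lay at the floor on at least 1 array. Il12rb2, Il31ra, Il20ra and Il20rb did not pass the filter, and the mean of each was at most 0.70 units in every group. Per group, 15 to 19 of the 32 tested members were above the floor on all 4 arrays, with 16 in B6_B1a and 18 in Sle2c1_B1a. The number wholly at the floor was 3 in B6_B1a and 0 in Sle2c1_B1a, against 5 in B6_Bs and 3 in Sle2c1_Bs.

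**Figure D2:**
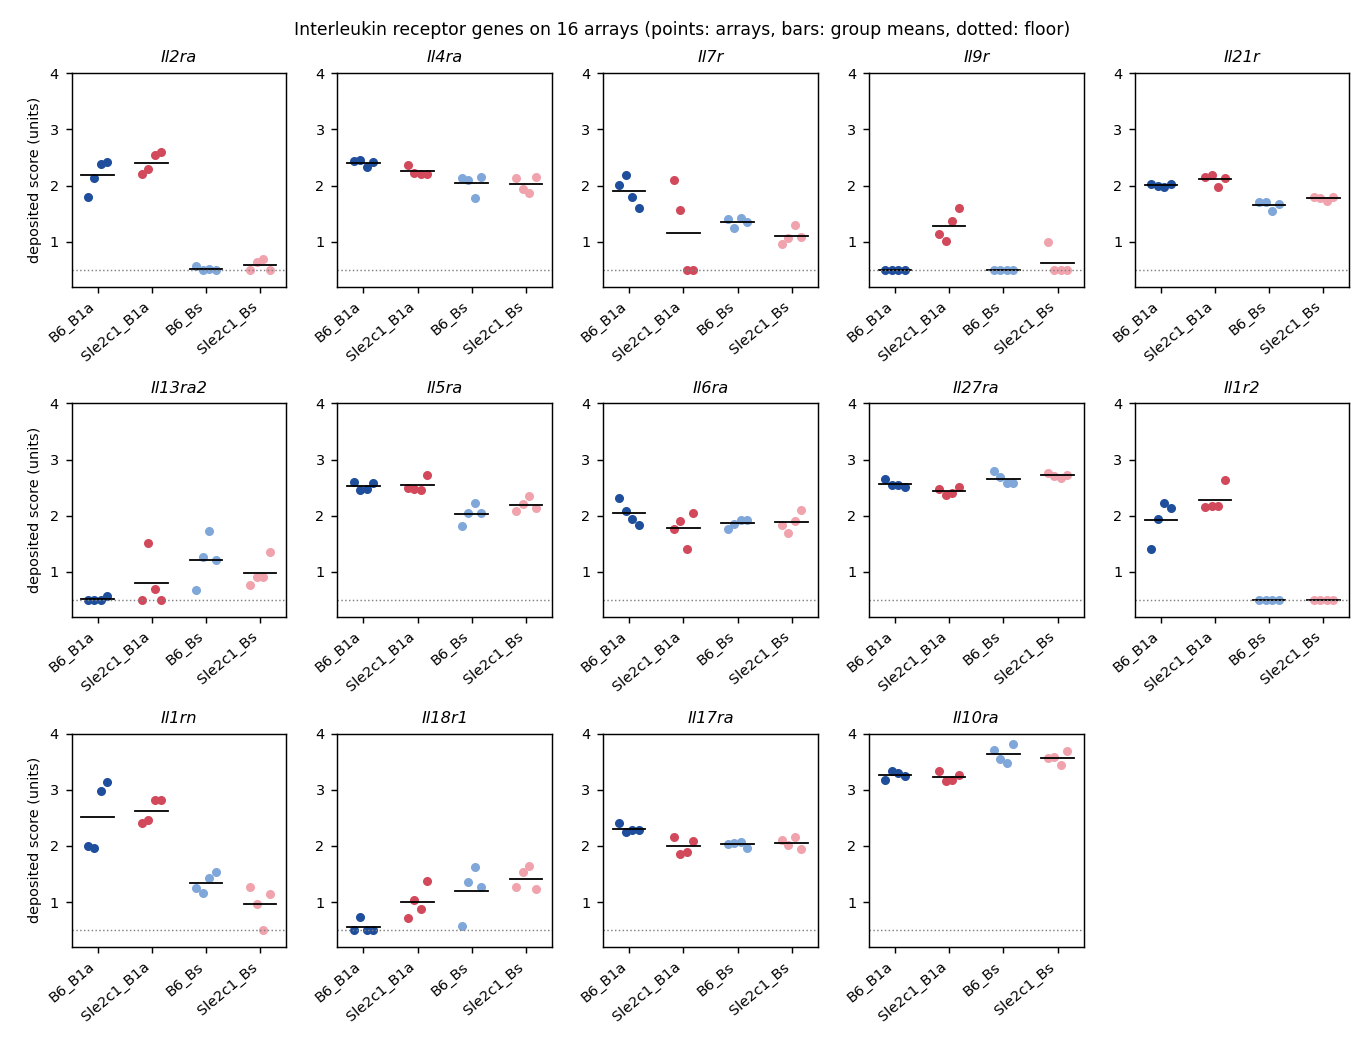
Level of the members named with all their values on each of the 16 arrays, in units of the deposited score, with 1 panel per gene and the 4 groups on the horizontal axis; points are arrays, bars are group means and the dotted line is the floor of 0.495. Il2ra and Il1r2 lie high on all 8 B1a arrays, and Il9r lies above the floor on all 4 Sle2c1_B1a arrays and on 1 Bs array.

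The comparison of B1a with Bs cells asked which cytokine receptors distinguish these B cell populations. In B6 mice 7 of the 32 tested members were higher in B1a cells and 3 were lower (limma, Benjamini-Hochberg adjusted p under 0.05 over 22727 features). Over all features 21.3% passed in this comparison, with 9.02% higher and 12.2% lower. In the Sle2c1 strain 6 members were higher and 2 were lower, beside 25.8% of all features called, with 11.0% higher and 14.7% lower. The share of members called was thus 31.2% in B6 and 25.0% in the Sle2c1 strain, the latter close to the background. The median difference of the tested members was 0.05 units in B6 and 0.11 in the Sle2c1 strain, beside -0.05 for all features in both strains.

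In all, 6 members were called in both strains, each in the same direction, which is 60% of the 10 calls in B6 and 75% of the 8 in the Sle2c1 strain. Over all features, 3370 were called in both strains, 3363 of them in the same direction, which is 69.7% of the calls in B6 and 57.5% of those in the Sle2c1 strain. The 6 members were Il2ra, Il21r, Il5ra, Il1r2 and Il1rn, all higher in B1a cells, and Il10ra, lower in B1a cells. Groups did not overlap for 10 members in each strain, beside 22.4% of all features in B6 and 25.5% in the Sle2c1 strain. For any such member the exact two-sided permutation p of 4 against 4 arrays is 0.0286, the smallest that 70 arrangements allow.

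**Figure D3:**
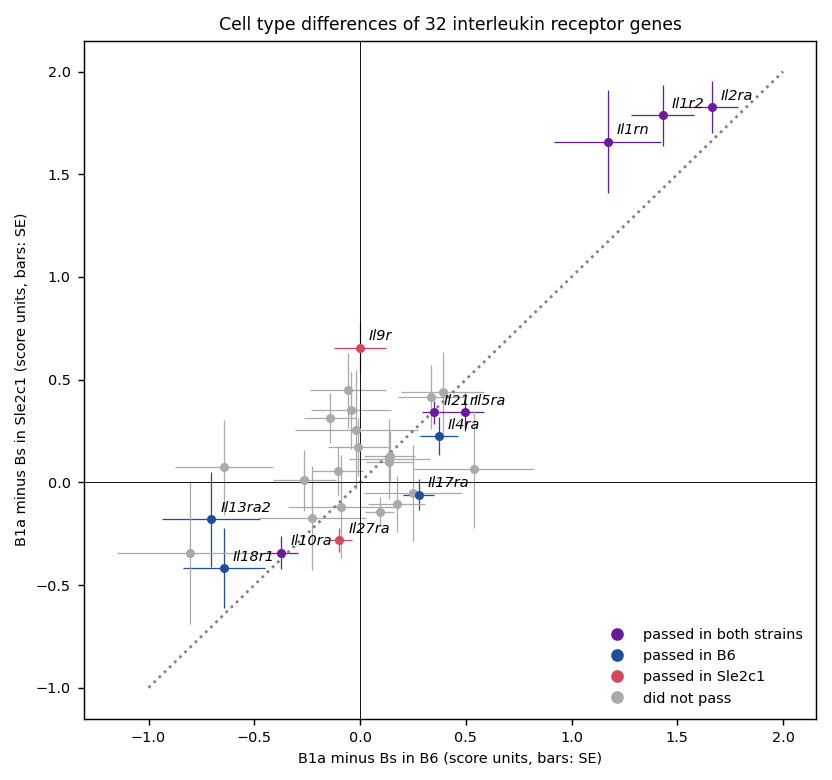
Difference between B1a and Bs cells (B1a minus Bs, units of the deposited score) of the 32 tested members in B6 mice (horizontal axis) against Sle2c1 mice (vertical axis); points are genes, bars are limma's SE, colours show in which strain a gene passed and the dotted line marks equal differences. Il2ra, Il1r2 and Il1rn lie apart at the upper right, at 1.17 units or more in both strains.

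In the gamma chain family, grouped here with Il13ra1 and Il13ra2, all 9 members were tested. In B1a cells of B6 mice 3 were higher and 1, Il13ra2, was lower, against 3 higher and 0 lower in the Sle2c1 strain. Il2ra encodes CD25, the alpha chain that raises the affinity of the IL-2 receptor. Its levels in B1a cells were 1.80, 2.13, 2.38 and 2.42 units in B6 and 2.20, 2.29, 2.55 and 2.60 in Sle2c1 mice. In Bs cells it lay at the floor on 4 of 8 arrays and at 0.52, 0.57, 0.64 and 0.70 on the others. Every B1a array was thus far above every Bs array. The difference was 1.66 units in B6 (SE 0.125, adjusted p = 2.83e-07) and 1.83 in Sle2c1 mice (SE 0.125, adjusted p = 8.97e-08). A further Il2ra probe set gave 1.05 (adjusted p = 0.000624) and 1.61 (adjusted p = 8.89e-06). With no floor the adjusted p was 0.327 and 0.0728. Il2ra is also carried by activated T cells, and the mean of 9 tested T cell markers was 1.31 to 1.49 in B6_B1a and 1.05 to 1.44 in Sle2c1_B1a against 1.05 to 1.19 in Bs arrays, and their part in the result was not tested.

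Il21r, which encodes the receptor chain for IL-21, a cytokine of follicular helper T cells, varied little within groups. It stood at 2.03, 1.99, 1.98 and 2.03 units in B6_B1a and 2.15, 2.19, 1.98 and 2.14 in Sle2c1_B1a. In B6_Bs it stood at 1.71, 1.70, 1.55 and 1.67 units, and in Sle2c1_Bs at 1.80, 1.77, 1.73 and 1.80. The lowest B1a array lay above the highest Bs array. The differences were 0.35 (SE 0.057, adjusted p = 0.000547) in B6 and 0.34 (adjusted p = 0.000539) in Sle2c1 mice. With arrays centred on their medians the second had an adjusted p of 0.0631.

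Il4ra, the chain shared by the IL-4 and IL-13 receptors, stood at 2.44, 2.45, 2.33 and 2.42 units in B6_B1a and at 2.13, 2.09, 1.77 and 2.16 in B6_Bs, with no overlap. The difference of 0.37 passed (SE 0.0908, adjusted p = 0.00988), though not with median centring (adjusted p = 0.0817). In the Sle2c1 strain the B1a arrays were 2.37, 2.23, 2.20 and 2.20 and the Bs arrays 2.13, 1.94, 1.87 and 2.16. These groups did not overlap either, and the difference of 0.225 did not pass (adjusted p = 0.0839). Of the other Il4ra probe sets, one gave 0.605 in B6 (adjusted p = 0.0396) and another 0.39 (adjusted p = 0.0781).

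Il9r, the receptor for the T helper cytokine IL-9, was at the floor on all B6 arrays of both cell types. In Sle2c1_B1a it stood at 1.13, 1.01, 1.36 and 1.60 units, and in Sle2c1_Bs at 0.99 on 1 array and at the floor on 3. Every Sle2c1_B1a array lay above every other array of the study. Il9r was above the floor on 5 of the 16 arrays and met the filter on low values mainly through Sle2c1_B1a. Neither the lack of overlap nor its calls are therefore independent of that filter. B1a minus Bs in the Sle2c1 strain was 0.66 (SE 0.124, adjusted p = 0.00136), and with no floor the adjusted p was 0.551.

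Il13ra2 encodes a decoy receptor for IL-13. In B6_B1a it was at the floor on 3 arrays and at 0.57 on the other, and in B6_Bs it stood at 0.67, 1.27, 1.72 and 1.21 units. The groups did not overlap, and B1a cells were lower by 0.70 (adjusted p = 0.0444). Leaving out any 1 of the 8 arrays compared except B6_Bs 1 ended it, with adjusted p up to 0.138, as did leaving out 3 arrays that lay apart (adjusted p = 0.139) and those with B6_Bs 1 (adjusted p = 0.0575). In the Sle2c1 strain B1a values reached from the floor to 1.51 and Bs values from 0.76 to 1.35, with overlap.

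Il7r, the receptor of IL-7, stood at 2.01, 2.19, 1.79 and 1.60 units in B6_B1a and at 1.40, 1.25, 1.43 and 1.35 in B6_Bs. These groups did not overlap, and the difference of 0.54 did not pass (adjusted p = 0.193). Il13ra1, which pairs with Il4ra, Il2rb, the signalling chain shared by IL-2 and IL-15, and Il15ra, which presents IL-15, had differences between -0.14 and 0.31 in the strains, none past the test. The other Il13ra1 probe sets disagreed. In Sle2c1 mice one gave 0.41 (adjusted p = 0.0402), another 0.03 and a further one -0.805 (adjusted p = 0.111), beside 0.16, -0.46 and -0.60 in B6 without passing. Il15ra is the direct neighbour of Il2ra in gene order, and its mean was 1.04 in B6_B1a and 0.79 in B6_Bs. Il4ra and Il21r are direct neighbours as well, and both were higher in B1a cells of B6 mice.

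Of the beta common, IL-6 and IL-12 family, 5 of 7 members were tested. Il5ra, the IL-5 binding chain, stood at 2.60, 2.45, 2.47 and 2.59 units in B6_B1a and 2.49, 2.48, 2.46 and 2.73 in Sle2c1_B1a. Bs levels were 1.82, 2.04, 2.22 and 2.05 in B6 and 2.09, 2.21, 2.35 and 2.14 in Sle2c1 mice. B1a cells were above Bs cells on every array, with a difference of 0.495 in B6 (SE 0.0906, adjusted p = 0.00139) and 0.34 in Sle2c1 mice (adjusted p = 0.0129). Both calls held in every alternative and without any 1 of the arrays compared. Of 5 tested eosinophil markers 2 were higher and 1 lower in B1a than in Bs cells of B6 mice, and 0 and 0 in the Sle2c1 strain. The part of such cells in the Il5ra result was not tested.

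Il27ra, the receptor chain of IL-27, was lower in B1a cells of the Sle2c1 strain. It stood at 2.47, 2.37, 2.40 and 2.51 units there and at 2.76, 2.71, 2.68 and 2.72 in Sle2c1_Bs, without overlap. The difference was -0.28 (SE 0.0593, adjusted p = 0.00311), and with median centring the adjusted p was 0.0838. In B6 mice it was -0.10 (adjusted p = 0.26), with 2.65, 2.54, 2.55 and 2.52 in B1a and 2.79, 2.69, 2.58 and 2.59 in Bs cells. The strains were not shown to differ in this, since the test of the difference between the effects gave -0.18 (adjusted p = 0.666).

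Il6ra, the IL-6 binding chain, stood at 2.31, 2.08, 1.94 and 1.84 units in B6_B1a and at 1.76, 1.86, 1.93 and 1.93 in B6_Bs. In the Sle2c1 strain it stood at 1.76, 1.90, 1.40 and 2.05 in B1a and at 1.83, 1.69, 1.90 and 2.11 in Bs cells. The groups overlapped in both strains and neither difference passed (0.17 and -0.105). Il3ra, the IL-3 binding chain, had differences of 0.34 (adjusted p = 0.138) and 0.415 (adjusted p = 0.063), and Il12rb1 of -0.02 and 0.26, none past the test.

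In the IL-1 family 9 of 9 members were tested. Il1r2 encodes a decoy receptor that binds IL-1 without signalling. It stood at 1.40, 1.95, 2.22 and 2.13 units in B6_B1a and 2.16, 2.17, 2.17 and 2.63 in Sle2c1_B1a, and at the floor on all 8 Bs arrays. The differences were at least 1.43 in B6 (SE 0.148, adjusted p = 8.05e-06) and at least 1.79 in Sle2c1 mice (adjusted p = 6.38e-07), and both calls held in every alternative that could be computed. Il1r2 was above the floor only on B1a arrays and met the filter on low values mainly through them. Neither its calls nor the lack of overlap are therefore independent of that filter. The neighbour of Il1r2 is Il1r1, the signalling receptor of IL-1. Il1r1 was at the floor on all 4 B6_B1a arrays and above it on 1 Sle2c1_B1a array, 3 B6_Bs arrays and 1 Sle2c1_Bs array. Its differences between B1a and Bs cells were -0.26 in B6 (adjusted p = 0.227) and 0.01 in Sle2c1 mice, neither past the test. Il1r2 is also made by neutrophils. The mean of 8 neutrophil markers was 1.25 to 1.64 units in B6_B1a and 1.48 to 1.64 in Sle2c1_B1a, against 1.43 to 1.83 for B6_Bs and 1.20 to 1.70 for Sle2c1_Bs, and members of that list went both ways. S100a8 and S100a9 were higher in B1a cells, by 0.43 (adjusted p = 0.0215) and 0.445 (adjusted p = 0.0272) in B6 and by 0.89 and 0.94 in Sle2c1 mice, where Cxcr2 was higher too, by 1.36 (adjusted p = 0.00104). Of the 8 markers 2 were higher and 2 lower in B6, and 3 higher and 1 lower in Sle2c1 mice. The part of neutrophils in the Il1r2 result was not tested.

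Il1rn, the IL-1 receptor antagonist, stood at 2.00, 1.96, 2.97 and 3.14 units in B6_B1a and 2.41, 2.47, 2.81 and 2.81 in Sle2c1_B1a. In B6_Bs the values were 1.25, 1.17, 1.43 and 1.54, and in Sle2c1_Bs 1.26, 0.96, the floor and 1.15. All B1a arrays lay above all Bs arrays. The differences were 1.17 in B6 (SE 0.252, adjusted p = 0.00448) and 1.66 in Sle2c1 mice (adjusted p = 0.000234). Another probe set gave 1.06 (adjusted p = 0.0455) and 0.93 (adjusted p = 0.064), and a further one 0.33 and 0.165 without passing. Macrophages make this antagonist too. Beside the Il1rn values of B6_B1a, in the same order of arrays, the macrophage list had means of 1.68, 1.26, 1.71 and 2.12. In Sle2c1_B1a that list had means of 0.950 to 1.01, with 3 of 15 markers higher than in Sle2c1_Bs and 4 lower. The 3 were Cd14 (2.28), Mrc1 (0.89) and Cd68 (0.83). The part of macrophages in the Il1rn result was not tested.

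Il18r1, the IL-18 binding chain, lay at the floor on 3 B6_B1a arrays and at 0.74 on the other, and at 0.57, 1.35, 1.62 and 1.26 units in B6_Bs. The groups overlapped through the Bs array at 0.57. B1a cells were lower by 0.64 (adjusted p = 0.0302), which was lost on leaving out any 1 of 6 arrays, B6_B1a 1, 3 and 4 and B6_Bs 2, 3 and 4, with adjusted p up to 0.0956, and without the 3 arrays that lay apart (adjusted p = 0.0638). In the Sle2c1 strain the values were 0.71, 1.04, 0.87 and 1.37 in B1a and 1.26, 1.53, 1.64 and 1.23 in Bs cells, and that difference did not pass. The mean of 6 tested NK cell markers, cells that carry this receptor, was 0.656 to 0.898 units on the B1a arrays and 1.18 to 1.74 on the Bs arrays, and their part in the result was not tested. Il1r2, Il1r1, Il1rl2, Il18r1 and Il18rap lie within 5 genes of each other in gene order, and among them Il1r2 was higher and Il18r1 lower in B1a cells of B6 mice.

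The other members of the IL-1 family did not pass in either strain. Il1rap, the accessory chain of several IL-1 type receptors, was above the floor on every array, with differences of 0.14 in B6 and 0.10 in Sle2c1 mice. Il1rapl2 had -0.805 in B6 (adjusted p = 0.112) and Il18rap, the IL-18 accessory chain, -0.04 in B6 and 0.35 in Sle2c1 mice.

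Of the IL-17 family, 5 of 5 members were tested. Il17ra, the chain shared by receptors of IL-17 cytokines, stood at 2.41, 2.25, 2.29 and 2.29 units in B6_B1a and at 2.04, 2.05, 2.07 and 1.97 in B6_Bs. Without overlap, B1a cells of B6 mice were higher by 0.28 (SE 0.0741, adjusted p = 0.0167). The call ended without B6_B1a 1 (adjusted p = 0.0528), with median centring (0.0553 adjusted) and with the mean of its probe sets (0.162 adjusted). In Sle2c1 mice the difference was -0.06 (adjusted p = 0.582), with 2.16, 1.85, 1.90 and 2.08 in B1a and 2.10, 2.02, 2.16 and 1.95 in Bs cells, which overlapped. Il17rb, Il17rc, Il17rd and Il17re had group means of at most 0.94 units, and none passed.

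Of the class II family, 4 of 6 members were tested. Il10ra, the ligand-binding chain for IL-10, stood at 3.17, 3.34, 3.30 and 3.24 units in B6_B1a and 3.33, 3.15, 3.17 and 3.26 in Sle2c1_B1a. In Bs cells it stood at 3.71, 3.55, 3.47 and 3.81 in B6 and at 3.56, 3.58, 3.45 and 3.69 in Sle2c1 mice. Every B1a array lay below every Bs array, with differences of -0.37 (SE 0.0804, adjusted p = 0.00449) and -0.34 (adjusted p = 0.00622). With median centring neither passed (adjusted p = 0.104 and 0.0785), and with the mean of the gene's probe sets the B6 difference was -0.20 (adjusted p = 0.058). Another Il10ra probe set gave -0.23 and -0.25 without passing, and a further one, mostly at the floor, 0.006 and -0.04.

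Il10rb, the signalling partner of Il10ra, had differences of 0.09 and -0.14, neither past the test. Its other probe set disagreed and was lower in B1a cells of both strains. That probe set gave -0.38 in B6 (adjusted p = 0.0443) and -0.996 in Sle2c1 mice (adjusted p = 3.86e-05). Il22ra2, a soluble decoy for IL-22, was at the floor on all 4 B6_B1a arrays and had a difference of -0.64 in B6 (adjusted p = 0.0628). Il22ra1, its membrane-bound relative, had -0.225 and -0.17.

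The comparison of strains within B1a cells asked what the congenic interval changed in these cells. Of the 32 tested members 1 was higher and 1 lower in Sle2c1_B1a, beside 3.38% of all features called, with 1.93% higher and 1.45% lower. At an unadjusted p under 0.05 there were 11 members (34.4% of those tested), beside 17.2% of all features. The median difference was 0.10 units for the members and 0.03 for all features. Groups did not overlap for 4 members, beside 8.38% of all features.

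**Figure D4:**
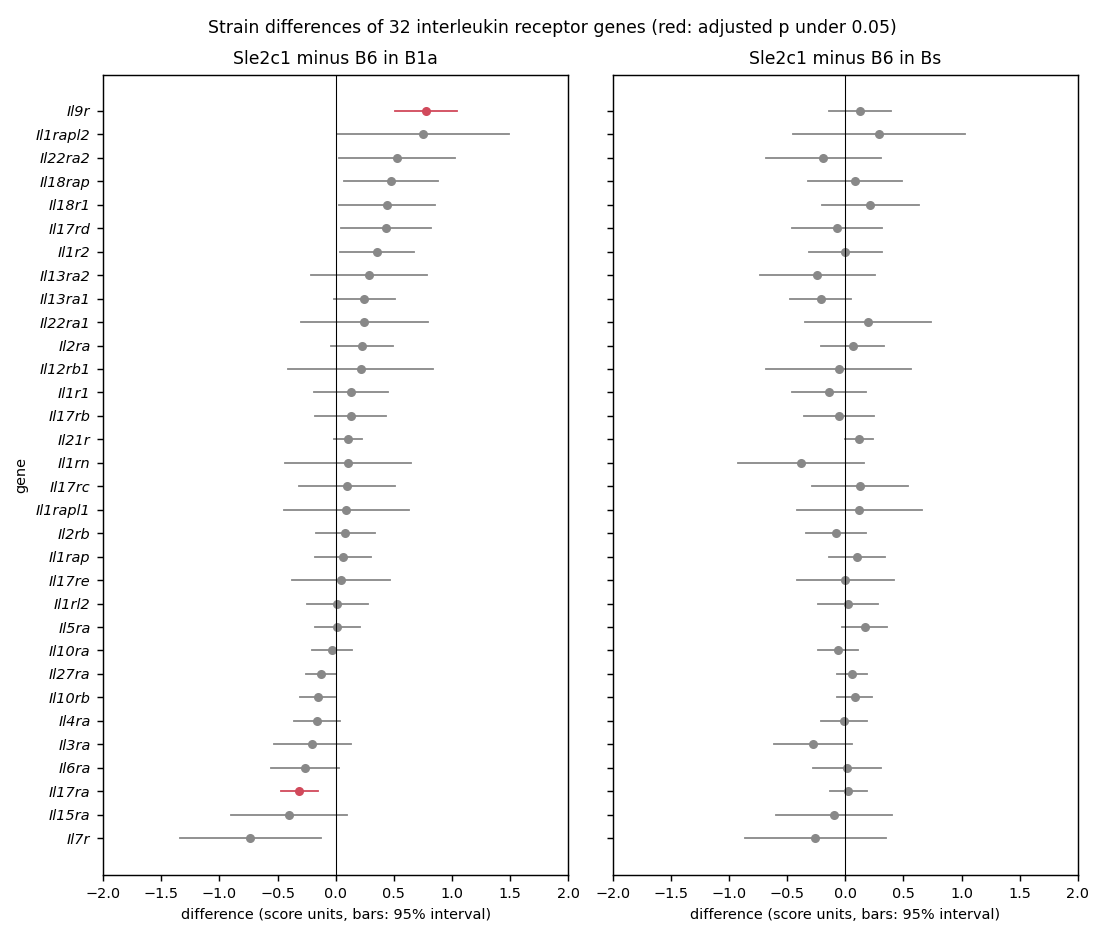
Difference between strains (Sle2c1 minus B6, units of the deposited score, horizontal axis) for the 32 tested members in B1a and in Bs cells, with 95% intervals from limma; red points passed an adjusted p of 0.05. In B1a cells Il9r (at least 0.78) lies to the right and Il17ra (-0.31) to the left, and in Bs cells no member passed.

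The member that was higher was Il9r, at the floor on every B6_B1a array and at 1.01 to 1.60 units in Sle2c1_B1a. It met the filter on low values mainly through Sle2c1_B1a, so that its call is not independent of that filter. The difference was at least 0.78 (SE 0.124, adjusted p = 0.0024), and it held without any 1 array. It ended with a floor of 1 unit (0.275, adjusted p = 0.148), with such groups kept from the estimate of the spread (adjusted p = 0.0638) and with no floor (adjusted p = 0.395). Of the 2365 features wholly at the floor in B6_B1a, 131 were higher in Sle2c1_B1a, which is 5.54%. In Bs cells the strain difference of Il9r was 0.12 and did not pass. The effects in B1a and Bs cells were not shown to differ, since their difference of 0.66 had an adjusted p of 0.196. Il9r is also carried by mast cells, and the mean of 10 mast cell or basophil markers was 1.64, 1.35, 1.35 and 1.29 units in B6_B1a against 1.38, 1.20, 0.986 and 1.23 in Sle2c1_B1a. None of the 10 markers passed between the strains in this comparison, 7 having a lower and 3 a higher mean in Sle2c1_B1a, and the part of mast cells in the Il9r result was not tested.

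The member that was lower was Il17ra, at 2.25 to 2.41 units in B6_B1a and 1.85 to 2.16 in Sle2c1_B1a. The groups did not overlap, and the difference was -0.31 (SE 0.0741, adjusted p = 0.0336). Leaving out any 1 of 6 of the 8 arrays compared ended it, namely B6_B1a 1 to 4 and Sle2c1_B1a 2 and 3, with adjusted p of 0.0528 to 0.105, and it also ended without B6_Bs 2, which enters only through the shared estimate of the spread. It ended as well with no floor (adjusted p = 0.0649) and with only the 8 arrays compared (adjusted p = 0.153). A further Il17ra probe set gave -0.48 (adjusted p = 0.0825). The difference of -0.34 between the effects in B1a and Bs cells did not pass (adjusted p = 0.335). Macrophages also carry Il17ra, and 6 of 15 tested macrophage markers were lower in Sle2c1_B1a. On the B6_B1a arrays Il17ra was 2.41, 2.25, 2.29 and 2.29 where the macrophage list was 1.68, 1.26, 1.71 and 2.12, and the part of those cells in the result was not tested.

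Il7r had the most negative strain difference and did not pass. It stood at 1.60 to 2.19 units in B6_B1a, and at 2.10, 1.56, the floor and the floor in Sle2c1_B1a. The difference was -0.735 (SE 0.284, adjusted p = 0.197), and without Sle2c1_B1a 1 its adjusted p was 0.0151. T cells carry Il7r, and the T cell list had means of 1.44, 1.13, 1.05 and 1.13 on the same Sle2c1_B1a arrays and 1.42, 1.49, 1.35 and 1.31 on the B6_B1a arrays. Of the 9 tested T cell markers 0 were higher and 1 was lower in Sle2c1_B1a, namely Cd3g (-0.87, adjusted p = 0.0147). Cd3e was 1.98 ± 0.294 (SD, n = 4) in B6_B1a and 1.18 ± 0.729 (SD, n = 4) in Sle2c1_B1a and did not pass (adjusted p = 0.178). Cd4 (0.48) and Cd28 (0.58) had higher means in Sle2c1_B1a without passing, and the other markers had lower means. The part of T cells in the Il7r result was not tested.

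Receptors called between B1a and Bs cells did not pass between the strains, apart from Il9r and Il17ra. Il2ra differed by 0.23 (95% interval -0.04 to 0.50, adjusted p = 0.377) and Il5ra by 0.01 (-0.18 to 0.21). Il1r2 differed by 0.36 (0.04 to 0.67, adjusted p = 0.231), Il1rn by 0.11 (-0.43 to 0.65) and Il21r by 0.11 (-0.01 to 0.23). Il10ra differed by -0.035 (-0.21 to 0.14), Il4ra by -0.16 (adjusted p = 0.393) and Il6ra by -0.265 (adjusted p = 0.338). These intervals do not show equality. Il1rapl2, which is known from the nervous system, had 0.75 (adjusted p = 0.281). Il18rap (0.48, adjusted p = 0.207) and Il27ra (-0.13, adjusted p = 0.29) did not overlap between the strains and did not pass.

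In Bs cells the strains were compared in the same way. Of the tested members 0 passed with limma, beside 0.154% of all features called, and 0 had an unadjusted p under 0.05, beside 3.42% of all features. The differences ran from -0.38 to 0.29 units. Groups did not overlap for 2 members, Il13ra1 (-0.21) and Il21r (0.12), beside 2.34% of all features, each with an adjusted p of 1. The difference of the strain effects between B1a and Bs cells passed for 0 members with limma, beside 0.431% of all features called. At an unadjusted p under 0.05 there were 6 members (18.8% of those tested), beside 7.42% of all features.

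The 4 lists of pathway genes outside the symbol pattern were counted in the same fit. Of 13 further receptor chains, all tested, 5 were higher and 0 lower in B1a cells of B6 mice, and 7 and 0 in the Sle2c1 strain. Over all features the shares were 9.02% higher and 12.2% lower in B6 and 11.0% and 14.7% in the Sle2c1 strain, which serve for all 4 lists. Il6st encodes gp130, which carries the signal of Il6ra and Il27ra. It was 2.97 to 3.12 units in B6_B1a and 1.53 to 1.80 in B6_Bs, a difference of 1.36 (adjusted p = 4.56e-09), and the difference was 1.19 in Sle2c1 mice (adjusted p = 1.44e-08). Csf2rb, the beta common chain that signals for Il5ra and Il3ra, was higher in B1a cells by 0.79 in B6 (adjusted p = 2.01e-06). In the Sle2c1 strain it was higher by 0.88 (adjusted p = 5.56e-07). Csf2rb2, its IL-3 specific copy, was higher by 1.30 in B6 (adjusted p = 2.43e-07) and by 0.82 in Sle2c1 mice (adjusted p = 2.39e-05). These genes are near-identical copies, so that their probe sets may share signal. Lifr, the LIF receptor, was higher by 1.48 in B6 and 1.45 in Sle2c1 mice. Between strains, Ifnlr1, a chain of the interferon lambda receptor, rose in B1a cells from the floor to a mean of 1.36 ± 0.231 (SD, n = 4), by at least 0.87 (adjusted p = 0.00367).

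Of 31 interleukin genes 17 were tested, with 6 higher and 2 lower in B1a cells of B6 mice and 5 and 1 in the Sle2c1 strain. Il10 was at the floor on all Bs arrays of both strains. In B1a cells it was higher by at least 2.32 in B6 (adjusted p = 8.77e-13) and at least 2.16 in Sle2c1 mice (adjusted p = 1.89e-12). Il10 met the filter on low values mainly through B1a cells, so that its calls are not independent of that filter. Its floored Bs groups also add no spread to the estimate behind these p-values. The receptor chain gene Il10ra was lower in B1a cells of both strains. Il18 was higher by 1.05 in B6 and 0.93 in Sle2c1 mice, and Il1b by 2.13 in Sle2c1 mice. In B6 mice Il1b had means of 3.04 units in B1a and 1.55 in Bs cells. Il6 fell in Sle2c1_B1a from 2.27 ± 0.319 to 1.16 ± 0.312 units (SD, n = 4 each), by 1.11 (adjusted p = 0.00234), while its receptor chain Il6ra was not called. The macrophage list had means of 1.26 to 2.12 units in B6_B1a and 0.950 to 1.01 in Sle2c1_B1a. The part of macrophages in the results for Il6, Il18 and Il1b was not tested.

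Of 15 Janus kinases, STAT factors and their inhibitors 14 were tested, with 6 higher and 0 lower in B1a cells of B6 mice and 3 and 1 in the Sle2c1 strain. Cish, a STAT5-induced inhibitor of cytokine signalling, was at the floor on all 8 Bs arrays. It stood at 2.34 to 2.45 units in B6_B1a, a difference of at least 1.91 (adjusted p = 9.8e-12), and the difference was at least 1.75 in Sle2c1 mice. As for Il10, the calls of Cish are not independent of the filter, and its floored Bs groups add no spread. Socs3, which restrains gp130 receptors, was higher by 2.06 in B6 and by 2.18 in Sle2c1 mice, and Stat3 by 0.46 and 0.64. Between strains in B1a cells, Stat4 was lower in Sle2c1 mice by 0.65 (adjusted p = 0.00591). Of 11 adaptors of the IL-1 and IL-17 receptors 9 were tested, with 4 higher and 1 lower in B6 and 3 and 1 in the Sle2c1 strain. Myd88, the adaptor of the IL-1 and Toll-like receptors, was higher by 0.74 and 0.50, and the kinase gene Irak2 by 0.38 and 0.64.

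**Figure D5:**
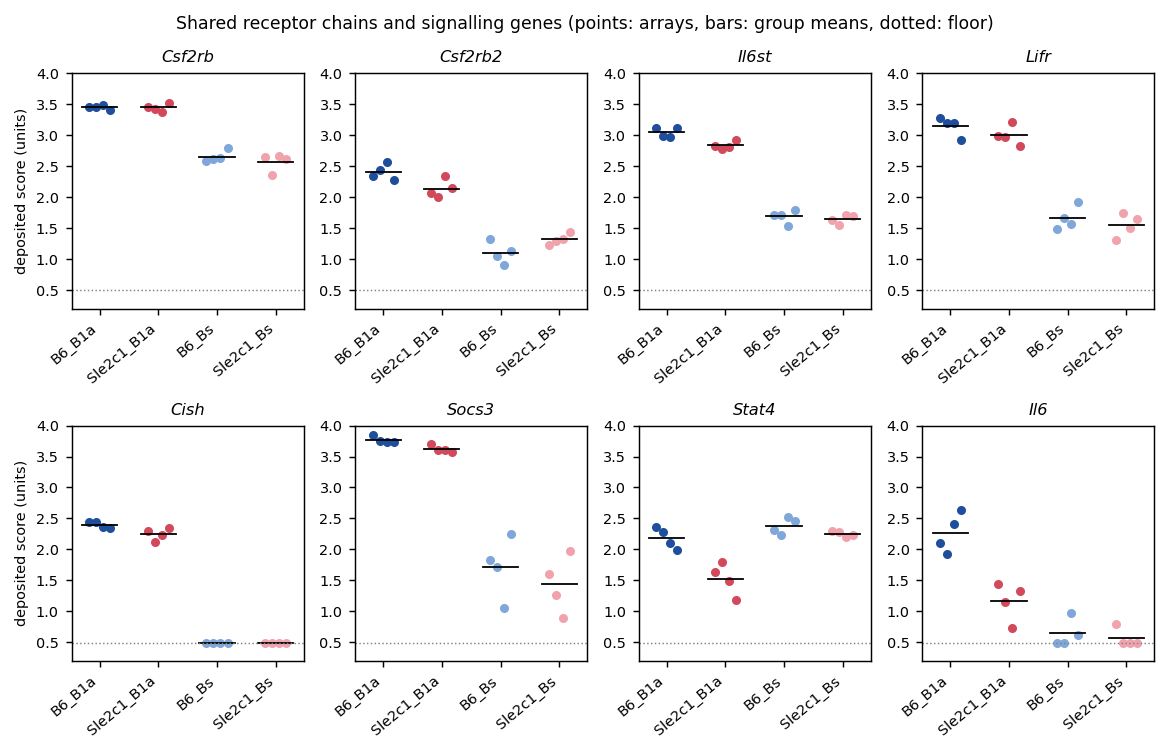
Levels of pathway genes outside the symbol pattern on each of the 16 arrays, in units of the deposited score (vertical axis), with 1 panel per gene and the 4 groups on the horizontal axis; points are arrays, bars are group means and the dotted line is the floor. Il6st, Cish and Socs3 lie higher on all 8 B1a arrays than on all 8 Bs arrays, and Il6 is lower in Sle2c1_B1a (1.16 ± 0.312) than in B6_B1a (2.27 ± 0.319).

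None of the members lies close to Cdkn2c. Il22ra1 alone shares its chromosome, 380 genes away in gene order, and its strain difference in B1a cells was 0.245 (adjusted p = 0.659).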

How the data were processed

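RNA of 16 samples was amplified, labelled with biotin and measured on Affymetrix mouse arrays, per the labels' protocols. The authors deposited 1 table of 45101 probe sets whose unit is a score. Its summarisation, log base, centring and scaling are not given in the sources used here. Each array had its own lowest value (-7.72 to -4.99), shared by 22.8% to 35.6% of its probe sets. The floor of 0.495 is the median of the 16 arrays' 40th percentiles. To be kept, a probe set had to exceed the 40th percentile of the array on 4 arrays or more (35032 did). A gene was represented by its probe set of highest mean, named by the platform annotation with symbols updated through RefSeq, which left 22727 features.

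The 4 group means were fitted in 1 model with limma 3.58.1 (R 4.3.3, with statmod 1.5.0). Moderated tests were two-sided, and p-values were adjusted by Benjamini and Hochberg's method across all features, with 0.05 as threshold. The fit was tested on simulated data, with changes planted only in features well above the floor. Recovery of changes in members at or near the floor was not covered. Members, pathway lists and marker lists were chosen with earlier results of these data known. Members called in any comparison, and 8 B cell receptors named in the plan, are given with every value where analysed. Pathway lists are given by counts and at most 3 genes per comparison, the smallest adjusted p first. Marker lists that no result sits beside (dendritic cell, erythroid cell, follicular or marginal zone B cell) are given here by their called genes in B6 mice, B1a against Bs cells. Of 7 dendritic cell markers 1 was higher and 1 lower, of 2 erythroid markers 0 and 1, and of 6 follicular or marginal zone markers 0 and 4. Replicates are those the series states, and no depth underlies array values, so that their number limits the precision.

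Deviations of same-numbered samples correlated at 0.112 to 0.621 between the strains in Bs cells, where every pair exceeded 0.1, and at -0.0111 to 0.167 in B1a cells, where they did not. Of the 4 B6_Bs arrays 2 correlated best with the Sle2c1_Bs array of their own number, and 2 of the 4 B6_B1a arrays did so with Sle2c1_B1a. The numbers may pair the Bs samples, which these values do not settle. Fits with a replicate block were run as alternatives. Other alternatives were floors, filters, probe set choice, scaling, forms of the test and leaving out each array. An NF-kB motif was also searched in the promoters at first and is not reported here.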

Additional observations from a re-analysis of the deposited data

Results flagged for a closer look

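In 52 groups of 4 arrays (14 members named with all values), 5 held 1 array far from the others by Dixon's criterion. For normally distributed values without ties, chance reaches it in about 1 group in 20. Il1r2 was 2.63 on Sle2c1_B1a 4, with the nearest array at 2.17, and Il5ra was 2.73 on the same array, with the nearest at 2.49. The other 3 were single arrays above the floor in a group otherwise at it, Il13ra2 at 0.57 on B6_B1a 4, Il18r1 at 0.74 on B6_B1a 2 and Il9r at 0.99 on Sle2c1_Bs 1. Any such group is flagged because its other arrays tie at the floor, so that rate does not apply to these 3.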

How the results depend on the processing

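No called difference of a member turned its direction. Of 20 called results, 7 held in all alternatives that could be computed and without any 1 of the arrays compared, namely Il1r2, Il1rn and Il5ra in both strains and Il21r in B6 mice, and 16 held without any 1 array. The count for the strains in B1a cells, 2, was 0 with no floor, and 1 with a floor of 1 unit, with a filter on 8 arrays, with only features above the floor on every array, with floored groups kept from the estimate of the spread, and with only the 8 arrays compared. With the filter on 8 arrays and with only features above the floor on every array, Il9r was not in the fit. Leaving out each array gave 1 to 3, with 1 without B6_B1a 1, 2, 3 or 4, Sle2c1_B1a 2 or 3, or B6_Bs 2. The count for B1a against Bs cells in B6 mice, 10, was 5 with only features above the floor on every array, where 10 members remained testable, and 18 with array weights (10 higher, 8 lower), and 7 to 12 with each array left out. In the Sle2c1 strain the count of 8 was 8 to 12 with each array left out and 6 with median centring (5 higher, 1 lower), which ended the calls of Il10ra, Il21r and Il27ra; the other settings gave 6 to 10. In B6 mice median centring gave 8 (5 higher, 3 lower). The strain counts in Bs cells and of the difference of effects were 0 under every setting.

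With the replicate number as a block the counts were 2, 0, 0, 10 and 10 for the strains in B1a cells, in Bs cells, the difference of effects, and the cell types in B6 and in Sle2c1 mice, and the block ended no call of a named member. Without Sle2c1_B1a 4, B6_Bs 3 and Sle2c1_Bs 3, the counts were 2, 0, 0, 9 and 9. In a fit added after seeing the data B6_Bs 1, which lay on the B1a side of the first principal component, was left out as well, with counts of 1, 0, 0, 12 and 10, and Il17ra between the strains no longer passed (adjusted p = 0.0518). Weak signal limits the 22 tested members that lay at the floor on some arrays.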
